A study of Mus musculus with 3 samples.

Results

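Notch1, Notch2, Notch3 and Notch4, the 4 receptors of the Notch pathway, were followed with 3 of their ligands (Dll4, Jag1 and Jag2) and 3 of their target genes (Hey1, Heyl and Hes1) through the non-cardiomyocytes of the mouse heart under pressure overload. These 10 genes were taken as a list, with no threshold on their values, and all 10 were found among the 27998 genes of the count tables. The cells came from the ventricles, without the atria, of wild-type male C57BL/6J JCL mice, in which transverse aortic constriction (TAC), a ligation of the aortic arch that loads the left ventricle with pressure, is done at 8 weeks of age. The cells had passed red cell lysis, filters and a Percoll gradient that concentrates non-cardiomyocytes. The hearts were healthy without TAC (0 weeks), in adaptive hypertrophy (2 weeks after TAC) or failing (12 weeks after TAC). Each phase was 1 droplet library and the number of mice behind it was not given in the sources used here. Phase and library therefore cannot be told apart, phases are compared without a test, and every interval on a library covers counting error only.

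Notch signaling passes between touching cells. A ligand on a cell binds a receptor on its neighbor, an ADAM protease and then γ-secretase cut the receptor, and its inner domain enters the nucleus, where it joins the DNA-binding protein Rbpj and a Mastermind coactivator to switch on target genes, among them the Hey and Hes families of transcriptional repressors. In blood vessels the pathway is known for arterial identity and tip cell choice in endothelial cells (ECs) and, through Notch3, for the maturation of smooth muscle cells (SMCs) and pericytes.

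The 10 genes are protein-coding. On GRCm38 (mm10), Dll4 (ENSMUSG00000027314) occupies chromosome 2 from 119325784 to 119335962 on the plus strand, Jag1 (ENSMUSG00000027276) chromosome 2 from 137081456 to 137116644 on the minus strand, Notch3 (ENSMUSG00000038146) chromosome 17 from 32120820 to 32166852 on the minus strand, and Hey1 (ENSMUSG00000040289) chromosome 3 from 8663359 to 8667256 on the minus strand. A RefSeq promoter window, from 250 bases before to 50 after the start of the gene, was matched for 7 of the 10. The targets Hey1, Heyl and Hes1 had none.

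Of these windows 3 are shown as examples, those of the ligands Dll4 and Jag1, compared between EC subtypes below, and of the receptor Notch3, compared between mural cells and ECs. They are printed 5′ to 3′ on the strand of the gene and lie at chr2:119325534-119325833 (plus strand), chr2:137116471-137116770 (minus strand) and chr17:32166841-32167140 (minus strand) of GRCm38.p6. Capitals mark each GC box, GGGCGG or its reverse complement CCGCCC.
Dll4: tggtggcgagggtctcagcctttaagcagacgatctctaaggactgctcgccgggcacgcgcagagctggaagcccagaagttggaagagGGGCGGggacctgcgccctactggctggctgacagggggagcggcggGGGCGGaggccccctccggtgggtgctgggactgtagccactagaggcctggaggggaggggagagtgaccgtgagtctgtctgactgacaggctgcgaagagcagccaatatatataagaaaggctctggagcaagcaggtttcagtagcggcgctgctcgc
Jag1: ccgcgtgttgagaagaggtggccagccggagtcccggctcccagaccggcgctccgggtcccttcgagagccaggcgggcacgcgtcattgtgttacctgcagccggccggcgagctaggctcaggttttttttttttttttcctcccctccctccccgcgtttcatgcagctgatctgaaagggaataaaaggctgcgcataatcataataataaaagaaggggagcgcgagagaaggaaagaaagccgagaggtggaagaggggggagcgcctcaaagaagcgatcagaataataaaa
Notch3: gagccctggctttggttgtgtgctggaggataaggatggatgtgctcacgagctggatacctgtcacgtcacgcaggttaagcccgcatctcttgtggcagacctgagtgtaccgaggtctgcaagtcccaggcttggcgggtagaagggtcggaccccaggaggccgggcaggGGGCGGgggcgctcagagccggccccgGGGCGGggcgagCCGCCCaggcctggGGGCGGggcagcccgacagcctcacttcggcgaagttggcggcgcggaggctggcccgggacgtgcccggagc

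The GC box was present 2 times in the Dll4 window and 4 times in that of Notch3 and was not found in that of Jag1, where 35.9% of all 27025 windows of this length hold it. The Rbpj core TGGGAA and the ETS core with a flank, CCGGAA, were searched on both strands. Neither was found in the windows of the 7 members, where 25.5% and 15.2% of all windows hold them. The ETS core without this flank was not searched. The targets Hey1, Heyl and Hes1, which had no window, were not searched. A match or its absence describes the letters of this window and not the binding of a factor.

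The libraries held 3892, 2231 and 792 cells with at least 200 genes at 0, 2 and 12 weeks, with a median of 2589, 1495 and 1434 unique molecular identifiers (UMIs, each standing for 1 captured transcript) per cell. Cells with over 10% mitochondrial UMIs were 5.04%, 9.32% and 17.2%. Pairs of libraries shared 1 to 5 cell barcodes. Cells were classed by marker lists that hold no Notch gene, which gave 3193 ECs, 311 SMCs, 52 pericytes, 1539 fibroblasts (FBs) and 1328 blood cells. All 8 EC, 7 SMC, 8 pericyte and 8 FB markers, and 9 of 11 blood markers, were found in at least 10% of the cells of their class. Further lists divided ECs into 2079 capillary-like, 641 arterial-like, 191 venous-like and 42 lymphatic-like cells. A level is given as CPM, the UMIs of a gene per 1000000 UMIs of the group.

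The first comparison asked which cells express each gene. UMIs were summed per class and library and tested with edgeR's quasi-likelihood test over 8621 genes with the library as a block, so the 3 libraries stand as replicates and their spread includes the phase. Against FBs, 7 of 10 members were higher in ECs and 2 lower, where 17.4% of all genes were higher and 19.1% lower. Against blood cells 8 were higher and 1 lower, beside 22% and 20.4%. Against SMCs 3 were higher and 3 lower, beside 16.1% and 15.2%.

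**Figure D1:**
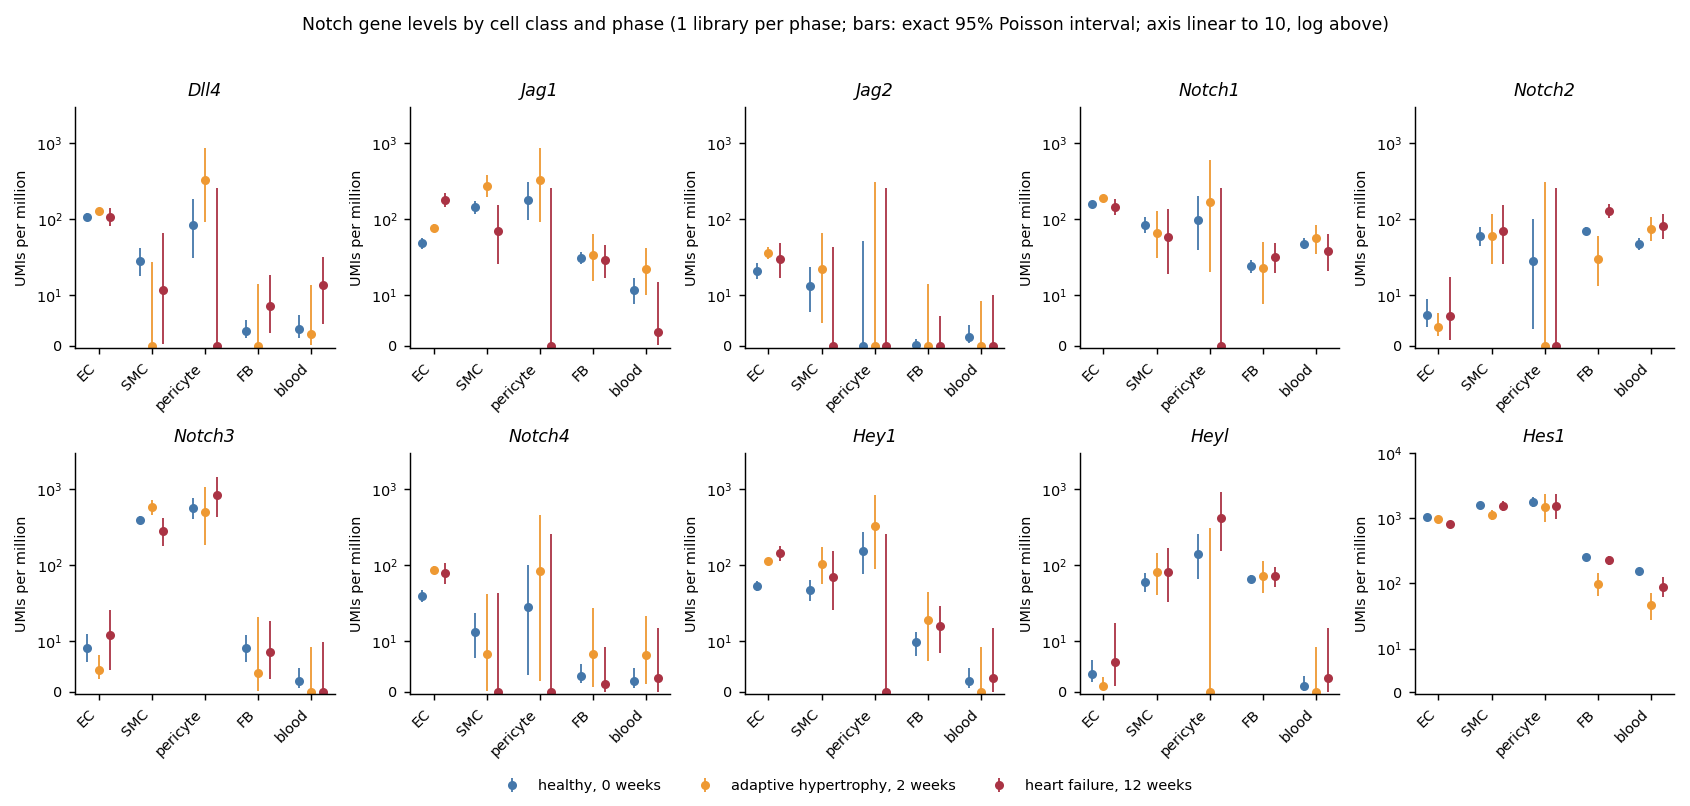
Levels of the 10 Notch genes in 5 cell classes in CPM, on an axis that is linear up to 10 and logarithmic above, with 1 point per library and exact 95% Poisson intervals. Dll4 and Notch1 are higher in every EC library than in any FB, blood or SMC library, and Notch3 is higher in every SMC and pericyte library than in any EC, FB or blood library.

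The ligand Dll4, known from sprouting and arterial endothelium, stood at 107, 127 and 107 CPM in ECs at 0, 2 and 12 weeks, from 356, 433 and 54 UMIs. It was at 2.94, 0 and 7.94 CPM in FBs, where the 0 allows up to 11.3 CPM, and at 3.23, 2.41 and 13.5 CPM in blood cells. In SMCs it was at 27.8, 0 and 11.7 CPM, where the 0 allows up to 22.2 CPM. Every EC library stood above every library of these 3 classes. On the log2 scale Dll4 was higher in ECs than in FBs by 4.91 ± 0.48 (SE, adjusted p = 3.41e-09 by edgeR), than in blood cells by 4.22 ± 0.48 (adjusted p = 3.97e-08) and than in SMCs by 2.29 ± 0.46 (adjusted p = 0.000334).

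Jag2, a ligand of the Serrate type, was at 21, 35.7 and 29.8 CPM in ECs. FBs held 1 Jag2 UMI in all and blood cells 5, against 207 in ECs, and both differences passed (adjusted p = 1.25e-07 and adjusted p = 1.22e-05). SMCs had 11, 3 and 0 UMIs and were not separated from ECs (0.86 ± 0.53, adjusted p = 0.241). Pericytes had none, which at their total allows up to 30.5 CPM.

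Jag1, the other Serrate-type ligand and the one that ECs present to smooth muscle, was found in every class. SMCs had 142, 273 and 70.3 CPM, ECs 48, 75.8 and 179, FBs 31.1, 34 and 28.6 and blood cells 11.8, 21.7 and 2.69. The libraries of ECs and SMCs overlapped, and the test did not separate them (-1.0 ± 0.42, adjusted p = 0.0714). Every EC library was above those of FBs (1.38 ± 0.42, adjusted p = 0.0104) and blood cells (2.34 ± 0.48, adjusted p = 0.00025). The call against FBs was lost without the heart failure library, where the difference was 0.77, and under DESeq2.

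Of the receptors, Notch1 and Notch4 were higher in ECs than in FBs, blood cells and SMCs. Notch1, which acts in sprouting and in the response of ECs to flow, was at 156, 187 and 145 CPM in ECs, 84.5, 66.5 and 58.6 in SMCs, 47.7, 55.5 and 37.7 in blood cells and 24, 22.7 and 31.7 in FBs. The EC libraries did not overlap with any of these. The differences were 2.58 ± 0.29 (adjusted p = 4.24e-08) against FBs, 1.39 ± 0.27 (adjusted p = 0.000123) against blood cells and 1.02 ± 0.30 (adjusted p = 0.00939) against SMCs. The last was lost without the adaptive hypertrophy library (0.81 ± 0.38, adjusted p = 0.112) and among cells with at most 10% mitochondrial UMIs.

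Notch4, a receptor known mainly from endothelium, was at 39.3, 85.7 and 79.4 CPM in ECs, 13.3, 7.39 and 0 in SMCs, where the 0 allows up to 35.1, 3.19, 7.55 and 1.59 in FBs and 2.15, 7.24 and 2.69 in blood cells. Every EC library stood above every library of the other 3 classes. The differences were 3.90 ± 0.42 (adjusted p = 1.73e-08) against FBs, 3.75 ± 0.45 (adjusted p = 9.75e-08) against blood cells and 2.15 ± 0.47 (adjusted p = 0.000737) against SMCs.

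Notch2 was low in ECs. This receptor, known from many mesenchymal and immune cells, was at 6.0, 3.8 and 5.96 CPM in ECs, 69.9, 30.2 and 129 in FBs, 47, 74.9 and 80.7 in blood cells and 59.2, 59.1 and 70.3 in SMCs. Every library of those classes exceeded every EC library. ECs minus FBs was -3.79 ± 0.36 (adjusted p = 1.34e-09), ECs minus blood cells -3.88 ± 0.36 (adjusted p = 8.05e-10) and ECs minus SMCs -3.60 ± 0.42 (adjusted p = 1.16e-07).

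Notch3, the receptor of mural cells (SMCs and pericytes), was at 392, 576 and 281 CPM in SMCs and 569, 497 and 834 CPM in pericytes, the latter from 41, 6 and 12 UMIs. ECs had 8.7, 4.39 and 11.9 and FBs 8.58, 3.78 and 7.94 CPM. Over the 3 libraries 64.6% of SMCs and 59.6% of pericytes had a Notch3 UMI, against 0.971% of ECs, 2.53% of FBs and 0.452% of blood cells, at median depths of 2726, 1758, 1768, 2775 and 2410 UMIs. ECs minus SMCs was -5.95 ± 0.35 (adjusted p = 1.2e-12), and ECs minus pericytes -6.02 ± 0.45 (adjusted p = 6.16e-10). Pericytes and SMCs were not separated (0.06 ± 0.39, adjusted p = 0.986), nor were ECs and FBs (-0.19 ± 0.44, adjusted p = 0.796). ECs exceeded blood cells (1.69 ± 0.63, adjusted p = 0.0333), a call lost under 5 of 11 alternatives, among them the omission of the healthy (adjusted p = 0.114) or of the heart failure library (adjusted p = 0.0891).

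The 3 targets differed in their distribution. Hey1, a repressor of arterial endothelium, was at 53.4, 114 and 143 CPM in ECs and 47.1, 103 and 70.3 in SMCs, ranges that overlapped (0.33 ± 0.35, adjusted p = 0.532). FBs had 9.81, 18.9 and 15.9 CPM and blood cells 2.15, 0 and 2.69, where the 0 allows up to 7.24, all below every EC library. These differences were 2.67 ± 0.35 (adjusted p = 5.69e-07) and 4.83 ± 0.49 (adjusted p = 5.06e-09).

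Heyl, a related repressor, was lower in ECs than in FBs and mural cells. It was at 66.5, 71.8 and 71.4 CPM in FBs, 60.4, 81.3 and 82 in SMCs and 139, 0 and 417 in pericytes, where the 0 at 2 weeks rests on 7 cells and allows up to 249, and at 3.6, 1.17 and 5.96 in ECs. ECs minus FBs was -4.58 ± 0.37 (adjusted p = 7.63e-11), ECs minus SMCs -4.66 ± 0.42 (adjusted p = 1.5e-09) and ECs minus pericytes -5.57 ± 0.64 (adjusted p = 7.02e-07). ECs and blood cells were not separated (0.83 ± 0.75, adjusted p = 0.405).

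Hes1, a repressor that several pathways besides Notch can induce, had the most UMIs of the 10 genes in every EC, SMC and FB library. It was at 1582, 1116 and 1534 CPM in SMCs, 1047, 953 and 810.2 in ECs, 256, 98.2 and 225 in FBs and 155, 45.9 and 88.8 in blood cells. Every SMC library was above every EC library, and every EC library above those of FBs and blood cells. ECs exceeded FBs (2.30 ± 0.29, adjusted p = 2.18e-07) and blood cells (2.97 ± 0.30, adjusted p = 4.16e-09), and the gap to SMCs did not pass (-0.59 ± 0.27, adjusted p = 0.105).

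Pericytes were 34, 7 and 11 cells, and the 2-week sum was too small to be tested. Notch3 and Heyl were lower in ECs than in pericytes and 0 members were higher, where 4.69% of all genes were higher and 2.98% lower. Here the scaling mattered for the genome as a whole. With DESeq2's size factors the median log2 difference of all genes went from 0.53 to 0.28 and the share of calls that were higher in ECs from 61.1% to 46.5%. Both members kept their call and direction under all 7 alternatives that could be fitted. Among these, subtypes from at least 3 markers leave both classes unchanged.

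Between pericytes and SMCs 0 of 10 members were called by edgeR and 0 by DESeq2, with 1 at an unadjusted p under 0.05, beside 0.963% of all genes higher and 3.11% lower. Between pericytes and FBs 4 were higher and 0 lower, beside 3.12% and 5.5%. Under DESeq2 the balance of all genes between pericytes and FBs turned, from 269 higher and 474 lower to 387 higher and 299 lower, and between pericytes and SMCs it went from 83 higher and 268 lower to 101 higher and 172 lower. The members higher in pericytes than in FBs were Notch3 (5.83 ± 0.46, adjusted p = 2.36e-09), Hes1 (2.32 ± 0.34, adjusted p = 2.97e-05), Hey1 (2.98 ± 0.72, adjusted p = 0.00689) and Dll4 (3.77 ± 1.11, adjusted p = 0.0301). The 8 EC markers summed to 1041, 1989 and 695 CPM in pericytes, between 5242, 6251 and 6346 CPM in ECs and 144, 117 and 133 CPM in FBs, with Cdh5, Kdr, Tek and Cldn5 at 0 in the pericytes of 12 weeks. Dll4 in pericytes was at 83.3, 331 and 0 CPM, and the part of endothelial transcripts in it was not tested.

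The second comparison asked how the genes differ between EC subtypes, with 5756 genes tested. Here edgeR pooled the spread over all genes, so a p-value does not rest on the spread of its own gene over the libraries. Of the members 7 passed the filter on low counts, and Notch2, Notch3 and Heyl did not. In arterial-like against capillary-like ECs 4 members were higher and 0 lower, where 5.79% of all genes were higher and 3.63% lower (333 higher and 209 lower, under DESeq2 205 higher and 79 lower). In venous-like against capillary-like ECs 0 were higher and 3 lower, beside 4.03% and 2.99%. In arterial-like against venous-like ECs 4 were higher and 0 lower, beside 3.34% and 3.13%.

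**Figure D2:**
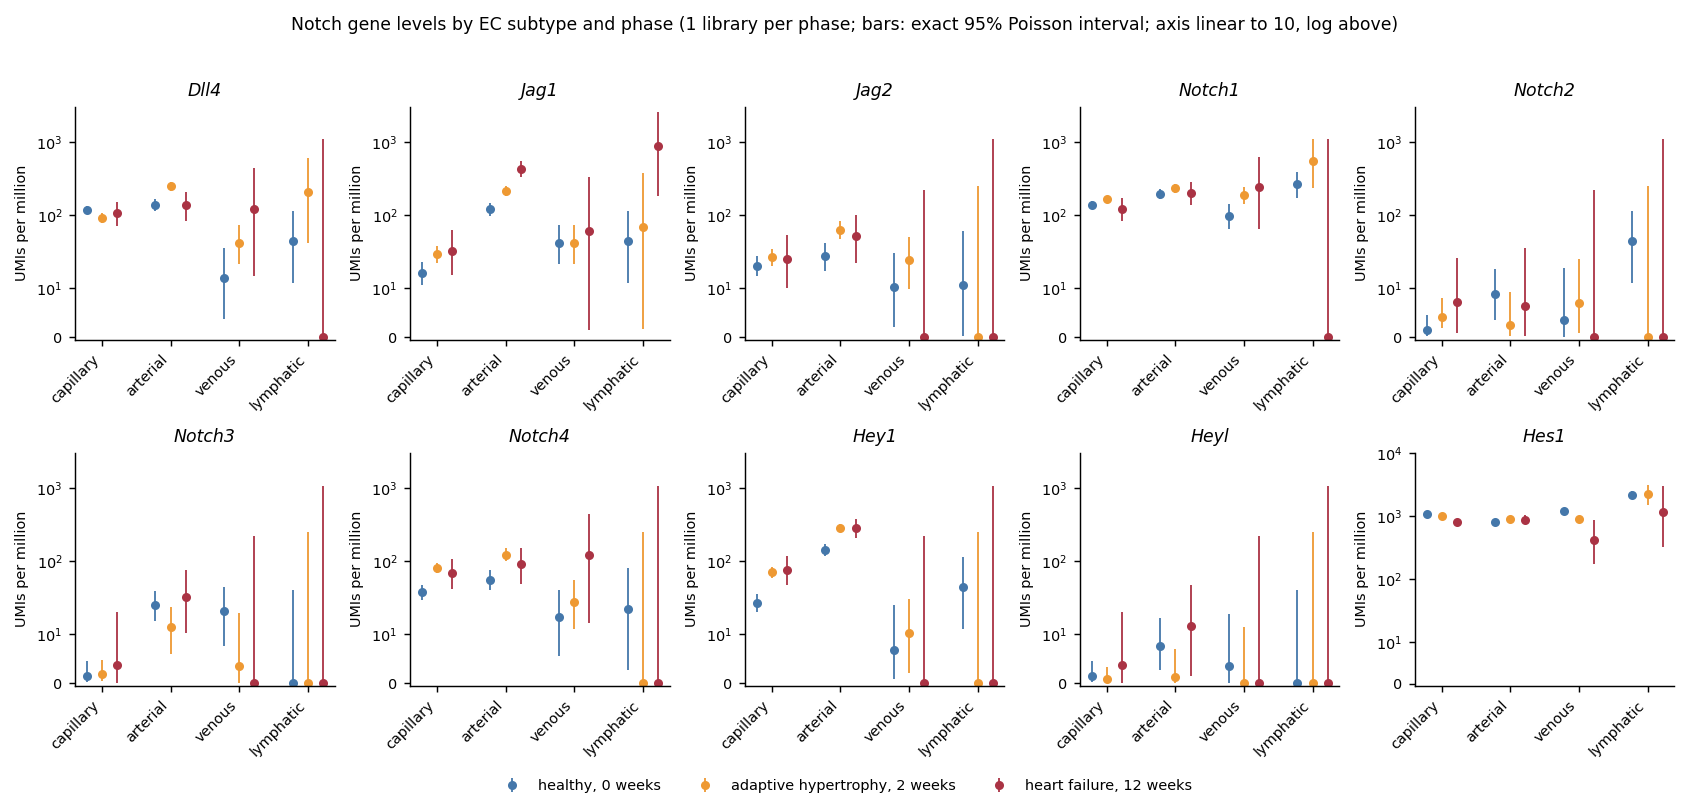
Levels of the 10 Notch genes in EC subtypes in CPM, on an axis that is linear up to 10 and logarithmic above, with 1 point per library and exact 95% Poisson intervals. Every arterial-like point of Jag1 and of Hey1 lies above every capillary-like and venous-like point of that gene.

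Of the 7 members tested, Jag1 had the largest difference between arterial-like and capillary-like ECs. The ligand was at 121 (98.4 to 148), 212 (181 to 247) and 426 (329 to 542) CPM in arterial-like ECs and at 16.2 (11 to 23.1), 29.3 (22.4 to 37.5) and 32.9 (15 to 62.4) CPM in capillary-like ECs at 0, 2 and 12 weeks, with 95% Poisson intervals. The lowest arterial-like library was above the highest capillary-like one, and the log2 difference was 2.94 ± 0.19 (adjusted p = 2.74e-51). Over 12 alternatives, by edgeR or DESeq2, it ranged from 2.81 to 3.45 with an adjusted p of up to 5.04e-05. Venous-like ECs, at 41.4, 41.7 and 60 CPM, were below arterial-like ones (arterial-like minus venous-like 2.08 ± 0.29, adjusted p = 7.08e-11) and not separated from capillary-like ones (0.86 ± 0.38, adjusted p = 0.199).

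The target Hey1 was ordered arterial-like, capillary-like, venous-like. It was at 142, 286 and 284 CPM in arterial-like and 27.2, 70.3 and 76.7 CPM in capillary-like ECs (2.06 ± 0.17, adjusted p = 1.06e-32), while venous-like ECs held 2, 3 and 0 UMIs. Venous-like minus capillary-like ECs was -2.57 ± 0.53 (adjusted p = 3.87e-05), and arterial-like minus venous-like ECs 4.63 ± 0.41 (adjusted p = 8.26e-27). The venous call against capillary-like ECs was lost without the adaptive hypertrophy library (-2.33 ± 0.88, adjusted p = 0.153) and in a strict gate, which kept cells with at most 1 UMI of another list.

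Dll4 was called between each pair of these 3 subtypes. It was at 139, 249 and 135 CPM in arterial-like, 118, 91.5 and 106 CPM in capillary-like and 13.8, 41.7 and 120.0 CPM in venous-like ECs, the last from 4, 12 and 2 UMIs. The arterial-like level was the higher in 3 of 3 libraries (0.76 ± 0.16, adjusted p = 4.08e-05). Without the adaptive hypertrophy library this difference was 0.23 ± 0.26 (adjusted p = 0.914), and the call was also lost without the replicate block (0.73 ± 0.33, adjusted p = 0.564) and under DESeq2 (0.63 ± 0.39, adjusted p = 0.643). Arterial-like minus venous-like ECs was 2.61 ± 0.31 (adjusted p = 1.74e-14). Venous-like minus capillary-like ECs was -1.85 ± 0.33 (adjusted p = 1.13e-06), a call lost without the healthy library (-1.07 ± 0.43, adjusted p = 0.197) and without the replicate block.

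Jag2 was at 27.8, 63.5 and 51.6 CPM in arterial-like and 20.4, 26.4 and 25.6 CPM in capillary-like ECs (0.89 ± 0.28, adjusted p = 0.0203), a call that was not made by DESeq2 or without the replicate block (0.92 ± 0.39, adjusted p = 0.463). Notch4 was at 55.7, 123 and 90.3 CPM against 37.7, 80.7 and 69.4 CPM, higher in 3 of 3 libraries without passing (0.51 ± 0.20, adjusted p = 0.0832). Venous-like ECs had 17.2, 27.8 and 120.0 CPM of Notch4, from 5, 8 and 2 UMIs. They were below arterial-like ECs (arterial-like minus venous-like 1.77 ± 0.38, adjusted p = 0.000118) and below capillary-like ECs (-1.26 ± 0.38, adjusted p = 0.0185).

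Both Notch4 calls were lost without the adaptive hypertrophy library, where they were 1.34 ± 0.63 (adjusted p = 0.401) and -0.87 ± 0.63 (adjusted p = 0.732), and without the healthy library the second was -1.25 ± 0.50 (adjusted p = 0.177). Without the replicate block neither passed, nor in the strict gate (adjusted p = 0.0614 and adjusted p = 0.218), and the second was also lost under DESeq2 (adjusted p = 0.184), so that 3 of 12 and 5 of 12 alternatives ended these calls. The receptor Notch1 (0.48 ± 0.18, adjusted p = 0.0666) and the target Hes1 (-0.18 ± 0.23, adjusted p = 0.823) were not called between arterial-like and capillary-like ECs.

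Mural transcripts were also higher in arterial-like ECs. The 8 pericyte markers summed to 614, 311 and 626 CPM there against 132, 63.2 and 168 CPM in capillary-like ECs, and the 7 SMC markers to 281, 141 and 316 against 82.3, 13.7 and 65.7 CPM. In the strict gate, which limits such cells, arterial-like minus capillary-like ECs was 2.90 ± 0.22 (adjusted p = 1.52e-18) for Jag1, 1.96 ± 0.17 (adjusted p = 7.89e-16) for Hey1 and 0.79 ± 0.17 (adjusted p = 0.000327) for Dll4. Notch3, which was not tested here, counted 35 UMIs in arterial-like and 8 in capillary-like ECs over the 3 libraries, and the part of mural transcripts in these was not tested.

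Lymphatic-like ECs were 27, 11 and 4 cells, of which the first 2 libraries were tested. By edgeR, 0 of 7 members were called against capillary-like ECs, with 2 at an unadjusted p under 0.05, beside 4.6% of all genes higher and 6.13% lower, and DESeq2 called 2, both higher. DESeq2 also turned the balance of all genes, from 265 higher and 353 lower to 287 higher and 172 lower. Its 2 members were Hes1 (0.90 ± 0.28, adjusted p = 0.0225) and Notch1 (1.12 ± 0.35, adjusted p = 0.0211). Hes1 was at 2132 and 2180.3 CPM in lymphatic-like against 1048 and 985 CPM in capillary-like ECs (0.71 ± 0.29, adjusted p = 0.0974), and Notch1 at 264 and 545 against 138 and 164 CPM (0.92 ± 0.35, adjusted p = 0.0657).

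**Figure D3:**
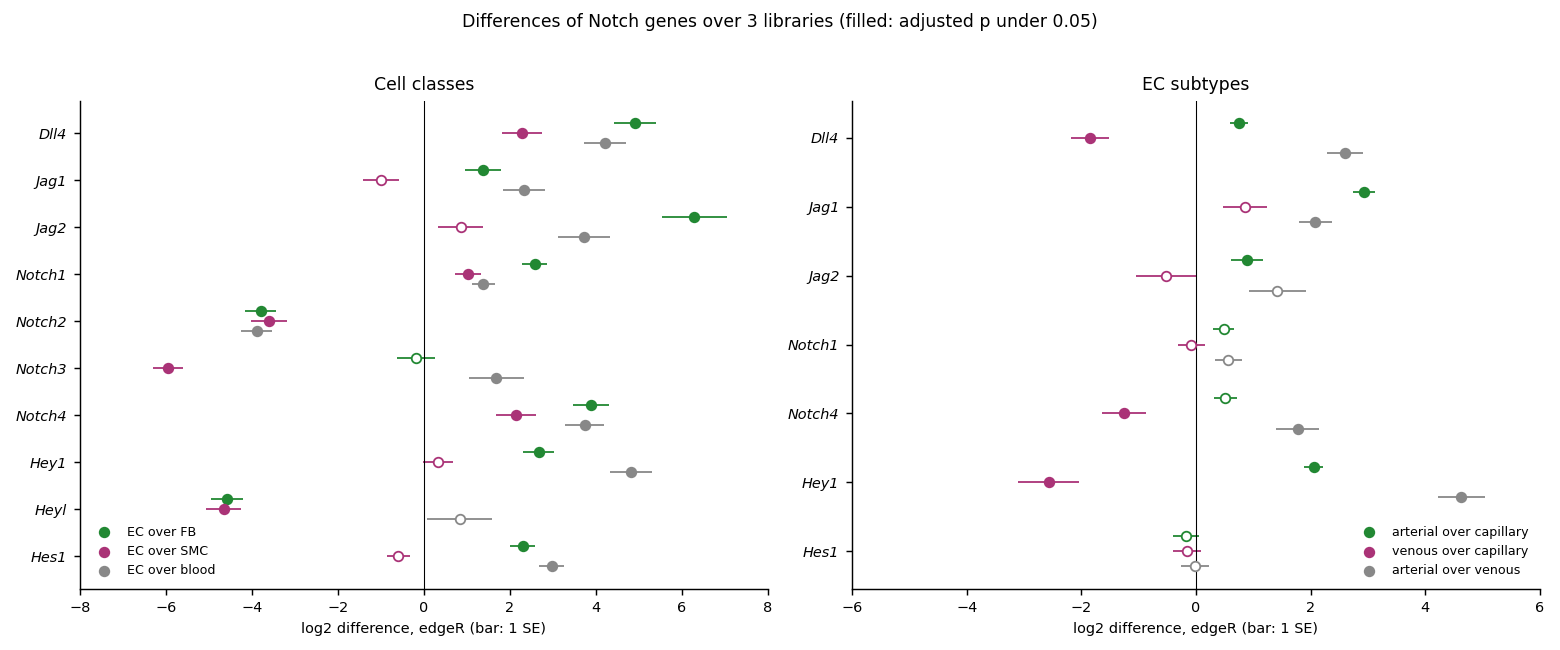
Log2 differences of the Notch genes between cell classes and between EC subtypes from edgeR, with bars of 1 SE and filled points for an adjusted p under 0.05. Jag1 and Hey1 have the largest differences between arterial-like and capillary-like ECs, at 2.94 ± 0.19 and 2.06 ± 0.17.

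The third comparison set the phases side by side. A gene was counted when its level was at least 2 times or at most 0.5 times the healthy one and it had at least 20 UMIs over both libraries, which 9 of 10 members had in ECs. At 2 weeks 2 members, Notch4 and Hey1, were past the line and higher in ECs and 0 lower, where 4.16% of all genes were higher and 6.25% lower. At 12 weeks 3, Jag1, Hey1 and Notch4, were higher and 0 lower, beside 9.26% and 8.43%. With each cell thinned to 1000 UMIs both counts stayed but a member changed each time. At 2 weeks Hey1 fell inside the line at 1.83 (1.34 to 2.5, 135 against 63 UMIs) and Jag2 passed it at 2.31 (1.38 to 4.01, 57 against 21 UMIs), and at 12 weeks Notch4 fell inside at 1.8 (0.907 to 3.35, 14 against 43 UMIs) and Jag2 passed at 2.1 (0.805 to 4.94, 8 against 21 UMIs).

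Jag1 in ECs stood at 48 (40.9 to 56), 75.8 (66.8 to 85.6) and 179 (144 to 219.7) CPM at 0, 2 and 12 weeks, and these intervals do not overlap. The ratio to healthy was 1.58 (1.29 to 1.94) at 2 weeks and 3.72 (2.84 to 4.85) at 12 weeks, and the latter ranged from 3.01 to 3.8 over 8 alternatives. Arterial-like cells were 19.9%, 19.4% and 24.2% of ECs. In them the Jag1 ratio was 1.74 (1.35 to 2.27) at 2 weeks and 3.5 (2.52 to 4.84) at 12 weeks, while in capillary-like ECs the 12-week ratio of 2.02 (0.847 to 4.35) rested on 9 against 31 UMIs and its interval includes 1, and it was below 2 under 3 of 7 alternatives.

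The share of arterial-like ECs with Jag1 was higher at 2 and 12 weeks as well. With each cell thinned to 1000 UMIs it was 12.2% (8.17 to 17.2) of 222 cells at 0 weeks, 22.7% (17.9 to 28) of 278 cells at 2 weeks and 32.1% (19.9 to 46.3) of 53 cells at 12 weeks, with exact 95% binomial intervals and 0, 66 and 22 shallower cells left out. Unthinned, the shares were 24.8%, 30.2% and 38.7% at median depths of 2451.5, 1770 and 1484 UMIs, against 2.82%, 3.61% and 0.568% of blood cells at median depths of 2616, 1541.5 and 1484.5 UMIs. The 6 venous markers summed to 204, 312 and 845 CPM in arterial-like ECs at 0, 2 and 12 weeks. One of these, Nr2f2, was lower than in healthy hearts, at 29.1, 5.08 and 12.9 CPM from 23, 4 and 2 UMIs. The other venous markers are not given singly. Of the 8 arterial gate markers, Gja5 stood at 48.1, 110 and 174 CPM in arterial-like ECs and Sema3g at 161, 589 and 387 CPM. The other arterial markers are not given here. The part of such marker shifts in the Jag1 and Hey1 ratios was not tested. In the strict gate the 12-week Jag1 ratio in arterial-like ECs was 3.86 (2.31 to 6.37, 29 against 41 UMIs).

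Hey1 in ECs was at 53.4, 114 and 143 CPM, with ratios to healthy of 2.13 (1.78 to 2.56) and 2.68 (2.01 to 3.54). Both subtypes were at or above 2 at both times. In arterial-like ECs the ratios were 2.02 (1.6 to 2.55) and 2.0 (1.38 to 2.86), and in capillary-like ECs 2.58 (1.87 to 3.61) and 2.81 (1.61 to 4.75). Thinned to 1000 UMIs per cell the arterial-like ratios were 1.43 (0.955 to 2.18, 70 against 39 UMIs) and 1.72 (0.897 to 3.15, 16 against 39 UMIs), and the capillary-like ratio of 12 weeks was 1.83 (0.659 to 4.43, 7 against 22 UMIs). Under 5 of 8 and 3 of 8 alternatives the arterial-like ratios of 2 and 12 weeks were below 2.

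Notch4 in ECs was at 39.3, 85.7 and 79.4 CPM, with ratios of 2.18 (1.77 to 2.7) and 2.02 (1.38 to 2.9). At 2 weeks both subtypes were past the line, with 2.21 (1.53 to 3.23) in arterial-like and 2.14 (1.62 to 2.86) in capillary-like ECs. After thinning the capillary-like ratio was 1.95 (1.21 to 3.21, 62 against 26 UMIs), inside the line, and Jag2 passed it at 2.04 (1.01 to 4.37, 30 against 12 UMIs). At 12 weeks neither subtype was past it, with 1.62 (0.821 to 3.02) and 1.84 (1.05 to 3.08), and the 12-week ratio of all ECs was below 2 under 4 of 8 alternatives, with a range from 1.78 to 3.07.

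**Figure D4:**
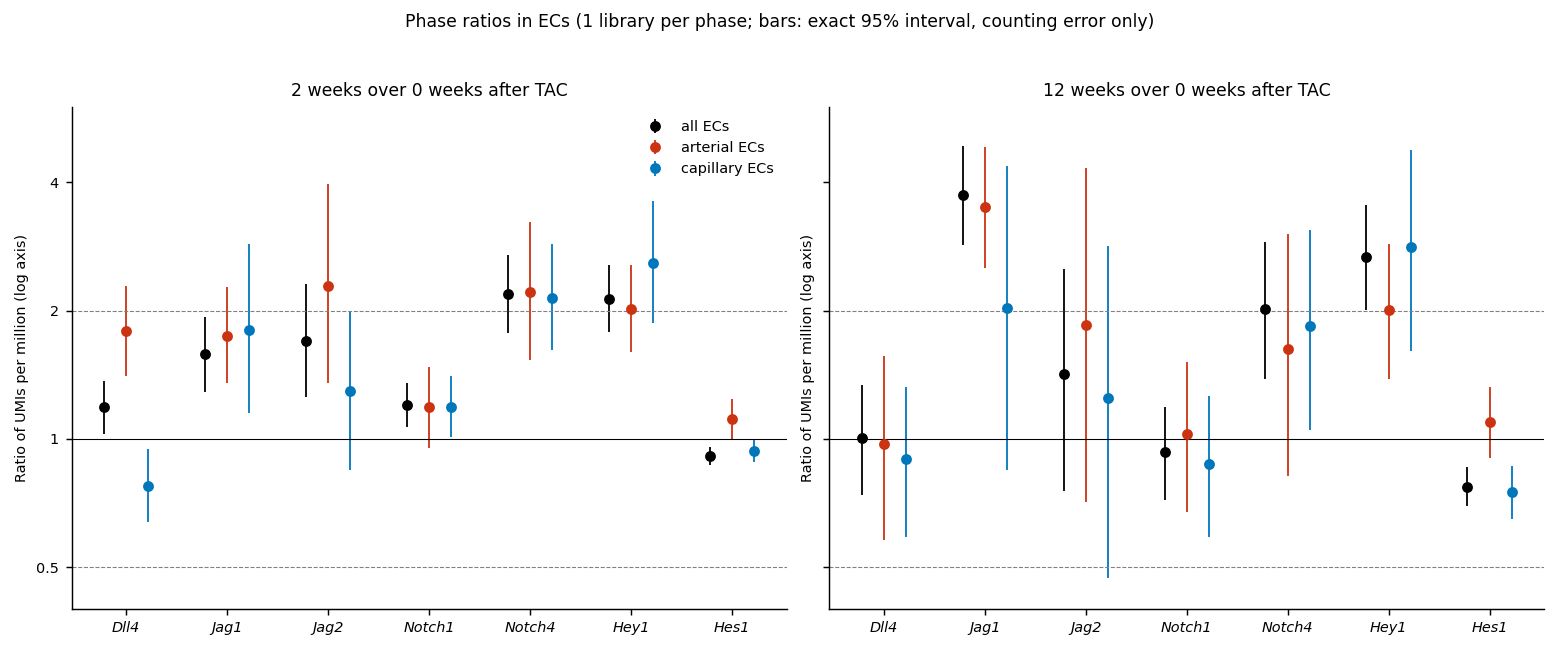
Ratios of the level at 2 weeks and at 12 weeks of TAC to that of healthy hearts for Notch genes in all, arterial-like and capillary-like ECs, on a log axis with exact 95% intervals of counting error. At 12 weeks Jag1 is at 3.72 in all ECs, and Dll4 lies at 1.79 in arterial-like and 0.777 in capillary-like ECs at 2 weeks.

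The other endothelial members moved less over all ECs. Dll4 had ratios of 1.19 (1.03 to 1.37) and 1.0 (0.74 to 1.34), Notch1 of 1.2 (1.07 to 1.35) and 0.931 (0.718 to 1.19), and Jag2 of 1.7 (1.26 to 2.31) and 1.42 (0.754 to 2.5). The subtypes differed in the direction of Dll4 at 2 weeks, at 1.79 (1.41 to 2.28) in arterial-like and 0.777 (0.638 to 0.945) in capillary-like ECs, and this difference was not tested. Jag2 at 2 weeks was at 2.28 (1.36 to 3.95) in arterial-like ECs and after thinning at 1.69 (0.727 to 4.23, 19 against 9 UMIs).

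By subtype, arterial-like ECs had 3 members past the line and higher at 2 weeks (Jag2, Notch4 and Hey1), beside 6.55% of all genes, and 2 at 12 weeks (Jag1 and Hey1), beside 7.59%. Capillary-like ECs had 2 at 2 weeks (Hey1 and Notch4), beside 5.18%, and 2 at 12 weeks (Hey1 and Jag1), beside 10.4%. Of 3 members with enough UMIs in venous-like ECs, 0 were past the line at 2 weeks, where 5.46% of all genes were higher and 7.4% lower. At 12 weeks, where these ECs were 12 cells, 1 of 2 was higher, Notch1 at 2.49 (0.634 to 7.11) from 4 against 28 UMIs, and 1 lower, Hes1, beside 11.1% and 26%. Values close to the line in these subtypes were the 12-week Hey1 ratio of 2.0 in arterial-like ECs, just past it, and, just inside it, the 2-week Notch3 ratio of 0.502 in arterial-like ECs, from 10 against 20 UMIs, and the 2-week Notch1 ratio of 1.95 in venous-like ECs, from 54 against 28 UMIs.

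Hes1 did not follow Hey1. In ECs it was at 1047, 953 and 810.2 CPM, with ratios of 0.911 (0.868 to 0.955) and 0.774 (0.697 to 0.857), and after thinning 55.9%, 50.2% and 37.1% of ECs had a Hes1 UMI. At 12 weeks the ratio was 0.752 (0.651 to 0.866) in capillary-like and 1.1 (0.905 to 1.32) in arterial-like ECs. In venous-like ECs it was 0.348 (0.139 to 0.725) from 7 against 350 UMIs, with a range from 0 to 0.755 over 8 alternatives, of which the strict gate and the mean over cells ended the call. The immediate early genes Fos, Jun, Egr1 and Atf3, chosen after the levels were seen, summed to 11482, 8758 and 7159 CPM in capillary-like and 11707, 8792 and 11178 CPM in arterial-like ECs at 0, 2 and 12 weeks, and their part in the Hes1 values was not tested.

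**Figure D5:**
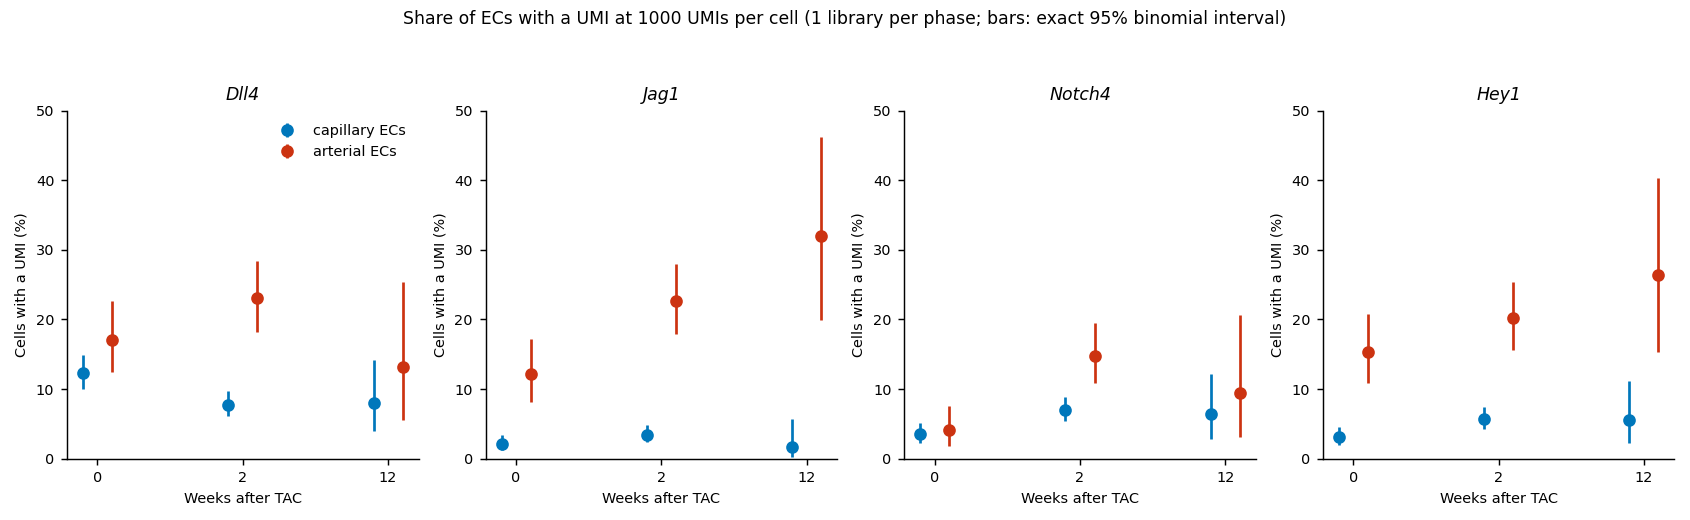
Share of capillary-like and arterial-like ECs with at least 1 UMI of a Notch gene after each cell was thinned to 1000 UMIs, by weeks after TAC, with exact 95% binomial intervals and 1 library per phase. For Jag1 the arterial-like shares are 12.2%, 22.7% and 32.1% and the capillary-like shares 2.09%, 3.41% and 1.6%.

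In FBs 3 of 7 members were past the line and lower at 2 weeks, where 14.3% of all genes were, and 0 were past it at 12 weeks, beside 6.97% of all genes higher and 6.97% lower. Hes1 was at 256, 98.2 and 225 CPM, a 2-week ratio of 0.383 (0.249 to 0.565), and Notch2 at 69.9, 30.2 and 129 CPM, a 2-week ratio of 0.432 (0.185 to 0.863). The 2-week library held 99 FBs, and the Notch2 value rests on 8 against 285 UMIs. Of these FBs 58 had at most 10% mitochondrial UMIs, against 1202 of 1243 in healthy hearts and 161 of 197 at 12 weeks. In the FBs below that limit the 2-week ratio was 0.371 for Hes1 and 0.538 for Notch2, which ended the Notch2 call, and after thinning to 1000 UMIs Hes1 was at 0.625, which ended the Hes1 call. Notch3 was the other, at 0.44 from 1 against 35 UMIs with an interval of 0.0108 to 2.62, and its call was lost under 3 of 7 alternatives. Notch2 at 12 weeks was at 1.84 (1.42 to 2.36) times its healthy level, and Heyl, the Hey gene of FBs, was at 1.08 (0.64 to 1.72) and 1.07 (0.766 to 1.48).

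In blood cells Hes1 was the member past the line at 2 weeks, lower at 0.297 (0.177 to 0.469), beside 14.7% of all genes. At 12 weeks Jag1 was lower, from 1 against 33 UMIs and with an interval of 0.00559 to 1.36, beside 12.4%. Notch2, which blood cells held beside Notch1, was at 1.59 (1.04 to 2.37) and 1.72 (1.12 to 2.57) times its healthy level. The 4 immediate early genes summed to 3515, 2180.4 and 2419.8 CPM in blood cells and 8709, 6772 and 9536 CPM in FBs, and their part in the Hes1 values was not tested.

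SMCs were 253, 40 and 18 cells. At 2 weeks Hey1 was past the line and higher, at 2.2 (1.1 to 4.14) beside 6.61% of all genes, and Dll4 lower, with 0 against 23 UMIs and an upper limit of 1.06, beside 12.3%. At 12 weeks Dll4 (0.422, 0.0102 to 2.6) and Jag1 (0.493, 0.177 to 1.11) were lower, beside 21.2%, and both intervals include 1. The Jag1 call was lost under 3 of 7 alternatives and the 2-week Dll4 call with the gate on plain UMI sums (0.978). Notch3 in SMCs had ratios of 1.47 (1.13 to 1.89) and 0.716 (0.452 to 1.08). Of endothelial transcripts in SMCs, Fabp4 was at 828, 1641 and 609 CPM and Cdh5 at 84.5, 148 and 58.6 CPM at 0, 2 and 12 weeks. Pecam1 was at 146, 140 and 211 CPM. The part of such transcripts in the SMC ratios was not tested.

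Of 41 other genes of the pathway, 30 could be tested between classes and 21 between EC subtypes. Against FBs 6 were higher and 5 lower in ECs, with a median log2 difference of 0.06 beside 0.01 for all genes. The largest were Nrarp, a Notch-induced feedback inhibitor (5.26 ± 0.44, adjusted p = 1.77e-10), Mfng, a glycosyltransferase that modifies receptors (4.87 ± 0.47, adjusted p = 3.14e-09), and the ligand Dll1 (4.14 ± 0.45, adjusted p = 2.47e-08). The lowest were the Deltex proteins Dtx4 (-5.51 ± 0.64, adjusted p = 7.65e-08) and Dtx3 (-1.67 ± 0.26, adjusted p = 7.2e-06) and the Numb-related inhibitor Numbl (-3.17 ± 0.40, adjusted p = 2.77e-07).

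Against blood cells 8 were higher and 5 lower. Dll1 (5.31 ± 0.58, adjusted p = 2.28e-08) and Nrarp (4.28 ± 0.42, adjusted p = 2.75e-09) led, with the target Hey2, of which blood cells held 0 UMIs. The γ-secretase subunit Aph1c (-4.50 ± 0.55, adjusted p = 1.51e-07), Dtx4 (-3.81 ± 0.75, adjusted p = 0.000159) and Rbpj (-3.03 ± 0.28, adjusted p = 7.59e-10) were lowest. Against SMCs 3 were higher, namely Mfng (3.04 ± 0.52, adjusted p = 5.04e-05), Dll1 (2.24 ± 0.50, adjusted p = 0.00102) and the protease Adam10 (1.83 ± 0.30, adjusted p = 2.69e-05). The 5 that were lower were led by Hey2 (-3.68 ± 0.51, adjusted p = 3.4e-06), Dtx3 (-2.73 ± 0.28, adjusted p = 1.46e-08) and the coactivator Maml3 (-2.11 ± 0.54, adjusted p = 0.00307).

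Pericytes had more Hey2 (ECs minus pericytes -3.67 ± 1.02, adjusted p = 0.0243) and Dtx3 (-3.41 ± 0.40, adjusted p = 1.18e-06) than ECs and less Mfng, of which the tested pericyte sums held 0 UMIs. They exceeded FBs in Nrarp (6.27 ± 0.63, adjusted p = 6.67e-08), Hey2 (3.36 ± 1.00, adjusted p = 0.0356) and Dtx3 (1.74 ± 0.38, adjusted p = 0.00273). Between pericytes and SMCs 0 of 30 were called by edgeR, with 1 at an unadjusted p under 0.05.

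Between EC subtypes Nrarp ran with Dll4 and Hey1. It was higher in arterial-like than in capillary-like ECs (0.52 ± 0.17, adjusted p = 0.0229) and than in venous-like ECs (1.52 ± 0.30, adjusted p = 1.9e-05), and lower in venous-like than in capillary-like ECs (-0.99 ± 0.30, adjusted p = 0.0188). The γ-secretase subunit Ncstn was also higher in arterial-like than in capillary-like ECs (0.83 ± 0.24, adjusted p = 0.00852). Dll1 ran the other way from Dll4, higher in venous-like than in capillary-like ECs (1.34 ± 0.29, adjusted p = 0.000151). Lymphatic-like ECs had more Dtx1 (6.01 ± 1.12, adjusted p = 2.8e-06), Aph1b (3.72 ± 0.90, adjusted p = 0.000814) and Psen2 (2.99 ± 0.67, adjusted p = 0.000202) than capillary-like ones, less Nrarp (-2.50 ± 0.81, adjusted p = 0.0236), and 0 UMIs of Mfng, which was also called lower.

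Across phases the other pathway genes in ECs had 0 past the line and higher and 1 lower of 32 at 2 weeks, the latter Aph1b at 0.40 (0.209 to 0.733). At 12 weeks 2 of 30 were higher, Dll1 at 2.04 (1.39 to 2.92) and the ligase Mib2 at 2.09 (0.683 to 5.44), and 1 was lower, Maml3 with 0 against 28 UMIs and an upper limit of 0.932. In FBs 8 of 28 were higher at 2 weeks, where 10% of all genes were, led by the ligase Neurl1b at 8.8 (3.2 to 22.5), Maml3 at 3.42 (0.842 to 10.4) and Hey2 at 2.72 (0.51 to 9.4), and of these 3 intervals only the first lies above 1.

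Within single ECs thinned to 1000 UMIs, the share with Hey1 was larger among those with Dll4 in each library. It was 11.5% of 130 healthy ECs with a Dll4 UMI and 4.37% of 984 without, 15.9% of 145 and 7.48% of 1163 at 2 weeks, and 16.7% of 18 and 10.9% of 184 at 12 weeks. Within arterial-like ECs the shares were 31.6% and 12% in healthy hearts and 21.9% and 19.6% at 2 weeks, and at 12 weeks 42.9% of 7 and 23.9% of 46 cells. Within capillary-like ECs they were 3.41% of 88 and 3.02% of 630 in healthy hearts and 10.3% of 68 and 5.3% of 812 at 2 weeks, while at 12 weeks the order was the other way, with 0 of 10 cells with Dll4 and 6.09% of 115 without. This was not particular to Dll4. ECs with and without Jag1 had Hey1 in 11.3% and 4.9%, 17.2% and 7.69%, and 28.6% and 9.39% of cells at 0, 2 and 12 weeks. Within arterial-like ECs these shares were 22.2% and 14.4%, 20.6% and 20%, and 35.3% and 22.2%. Within capillary-like ECs they were 0 of 15 cells and 3.13%, 10% and 5.53%, and 0 of 2 cells and 5.69%. ECs with and without Notch1 had Hes1 in 53.8% and 56.3%, 52.9% and 49.5%, and 38.5% and 36.9%. Cells of a library are not replicates, so these shares carry no test.

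The genes most like each member were read from Pearson's r of log2(CPM + 1) over 22 sums of a group and a library among 9329 genes. The sums share libraries and depth, so r is a description. Notch1 ran closest to Elk3 (0.95), Sypl (0.94) and Map4k2 (0.94), Notch4 to Mcf2l (0.95), Rsad2 (0.92) and Car4 (0.89), Notch3 to Aoc3 (0.96), Rasl12 (0.96) and Ednra (0.95) and Notch2 to Hk2 (0.90), Axl (0.90) and Glipr2 (0.88). Among the ligands Dll4 ran closest to Fam84b (0.89), Grrp1 (0.89) and Adgrg1 (0.88), Jag1 to Esyt2 (0.87), Osmr (0.83) and Atp2b4 (0.82) and Jag2 to Nova2 (0.95), Dll1 (0.93) and Endou (0.89). Among the targets Hey1 ran closest to Alpl (0.90), Rnf152 (0.89) and Ctif (0.88), Heyl to C1s1 (0.95), Gpx8 (0.95) and Rgma (0.95) and Hes1 to Utrn (0.91), Crim1 (0.89) and Hmg20b (0.86). Car4, near Notch4, was itself a capillary marker of the gate.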

How the data were processed

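Non-cardiomyocytes of mouse ventricles were measured in 3 droplet libraries, 1 each from healthy hearts, adaptive hypertrophy (2 weeks) and heart failure (12 weeks). The deposited files hold counts of UMIs per gene and cell, which the authors made with Cell Ranger 2.0.0 on mm10, per the submitters' processing notes, from a 3′ kit, so a gene is read near its end. The tables held 3900, 2239 and 802 cells, and total UMIs of the cells kept (at least 200 genes) were 12287823, 4465929 and 1712728. The members and gene lists were chosen with earlier results of these data known.

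A cell was given the class whose markers had the highest sum of log2(1 + UMI), with at least 2 markers and 1.5 times the next class. Arterial-like, venous-like, endocardial and lymphatic-like ECs were called likewise among themselves. The capillary list did not compete. Capillary-like ECs were those without such a call, with fewer than 2 markers of each of these lists and at least 3 capillary markers. The log2 score was chosen after the files were seen, in place of a plain sum of UMIs, which was run as an alternative. No doublet caller was used. Cells without a clear class were left out, and a strict gate was an alternative. The gates hold no Notch gene. UMIs were summed per group and library (at least 10 cells) and tested with edgeR 4.0.16 (TMM, quasi-likelihood, library as a block) in R 4.3.3, with Benjamini-Hochberg adjustment over all genes tested. Groups in the same library come from the same hearts, which is where the pairing comes from. The code was tested on simulated data. With simulated counts of a fixed spread, edgeR called 94.4% of 4-fold and 30% of 2-fold changes between ECs and FBs. Between arterial-like and capillary-like ECs it called 93.5% and 29.9%. A difference near 2-fold or smaller that was not called is therefore not shown to be absent. Phases were compared by exact Poisson, conditional binomial and Clopper-Pearson intervals, which cover counting error only.

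Alternatives were DESeq2 1.42.0, its size factors, no filter on low counts, no block, at least 500 genes, at most 10% mitochondrial UMIs, a strict gate, each library left out, thinning to 1000 UMIs, the mean over cells, and division by the median ratio of all genes. The gate on plain UMI sums and subtypes from at least 3 markers were chosen after seeing the data. The latter repeats the main result for differences between classes and for phase ratios of classes and capillary-like ECs. Numbers of alternatives given for those include it. Of 41 other pathway genes, up to 3 per direction and comparison with the largest difference were named, and for each member the 3 genes with the highest r. Coordinates are from GENCODE vM21, and promoters from RefSeq on GRCm38.p6.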

Additional observations from a re-analysis of the deposited data

Results flagged for a closer look

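In 5 cases a member lay on opposite sides of 1 in different groups over the same phases, each with an interval that does not include 1. None of these differences was tested, and each group holds 1 library per phase. The Dll4 ratio of 2 weeks to healthy was 0.777 (0.638 to 0.945) in capillary-like and 1.79 (1.41 to 2.28) in arterial-like ECs. The Notch2 ratio of 2 weeks to healthy was 0.432 (0.185 to 0.863) in FBs and 1.59 (1.04 to 2.37) in blood cells. The Notch3 ratio of 2 weeks to healthy was 0.504 (0.251 to 0.972) in ECs and 1.47 (1.13 to 1.89) in SMCs. In ECs of 0 and 2 weeks Notch3 stood at 8.7 and 4.39 CPM, Myh11 at 16.8 and 3.51 CPM and Rgs5 at 205 and 99.8 CPM. The part of mural transcripts in this EC ratio was not tested. The Jag1 ratio of 12 to 2 weeks was 2.36 (1.83 to 3.01) in ECs and 0.257 (0.0886 to 0.614) in SMCs. The Hes1 ratio of 12 to 2 weeks was 0.85 (0.765 to 0.942) in ECs, against 1.37 (1.08 to 1.75) in SMCs, 2.3 (1.5 to 3.63) in FBs and 1.94 (1.07 to 3.6) in blood cells.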

How the results depend on the processing

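Of 860 log2 differences of single members under the alternatives, 804 kept their direction and side of the threshold, 27 lost the call, 28 gained it and 1 turned, and of 243 phase ratios 228 stayed within the counting interval, 13 moved and 2 turned. These counts include subtypes from at least 3 markers, which leave the cell classes and the capillary-like cells as they were. Differences between classes, and phase ratios of classes and capillary-like ECs, are then unchanged by construction. The cause was not tested for any of the changes. Jag2 between pericytes and FBs was 6.23 with the gate on plain UMI sums, where both groups otherwise held 0 or 1 UMI, the Notch3 ratio of FBs at 2 weeks was 1.69 as a mean over cells, and the Jag1 ratio of SMCs at 12 weeks was 1.24 after thinning. Without the replicate block 2 members were called between arterial-like and capillary-like ECs in place of 4, and 1 between venous-like and capillary-like ECs in place of 3; apart from those named in the report or here, it ended the Dll4 call between pericytes and FBs (adjusted p = 0.0567). DESeq2 called 2 between arterial-like and capillary-like ECs and 2 in place of 0 between lymphatic-like and capillary-like ECs, where its size factors in edgeR gave 2, at least 500 genes 1, at most 10% mitochondrial UMIs 1 and the gate on plain sums 2. That gate called 2 in place of 0 between pericytes and SMCs and 9 in place of 4 between pericytes and FBs. Between venous-like and capillary-like ECs the strict gate called 1 and subtypes from at least 3 markers 5. With each library left out in turn, 2 to 5 members were called between arterial-like and capillary-like ECs (2 without the adaptive hypertrophy library) and 1 to 3 between venous-like and capillary-like ECs (1 without the healthy or the adaptive hypertrophy library). Members past the fold against healthy went from 3 to 1 in arterial-like ECs at 2 weeks after thinning, from 2 to 1 in arterial-like ECs at 12 weeks after thinning or with 3 markers, and from 2 to 0 in capillary-like ECs at 12 weeks after thinning, where at least 500 genes, at most 10% mitochondrial UMIs or division by the median ratio gave 1. In FBs at 12 weeks they went from 0 to 1 in the strict gate and to 2 after thinning, in blood cells at 2 weeks from 1 to 2 in the strict gate and on plain sums, and in blood cells at 12 weeks from 1 to 2 at most 10% mitochondrial UMIs and to 0 in the strict gate or after thinning.

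Counts over all genes moved by more than 1.5 times in these cases. Without the healthy library they went from 3146 to 2056 between ECs and FBs, from 2699 to 1365 between ECs and SMCs, from 542 to 320 between arterial-like and capillary-like, from 404 to 189 between venous-like and capillary-like and from 372 to 209 between arterial-like and venous-like ECs. Without the adaptive hypertrophy library the last 3 were 298, 172 and 151, under DESeq2 284, 248 and 204, and without the replicate block 106, 100 and 100. The strict gate gave 187 and 226 for the last 2. Between lymphatic-like and capillary-like ECs 618 became 323 without the block, between pericytes and SMCs 351 became 208 without the block and 603 on plain sums, and between pericytes and FBs 743 became 1644 on plain sums. Comparisons with endocardial cells, and those of pericytes in the strict gate, were not run because too few cells were left. The small pericyte, venous-like and lymphatic-like sums and the 792 cells of the heart failure library limit the depth, and 3 libraries of 3 phases limit every test.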

Other observations

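Neural cells (37, 18 and 12 at 0, 2 and 12 weeks), which carried all 4 neural markers, had Hes1 at 1338, 372 and 735 CPM and Notch1 at 108, 217 and 45.9 CPM. The 10 ECs chosen by the endocardial list, of whose top 10 genes none was an endocardial marker, had 717 CPM of Hes1 and 239 CPM of Notch1 over the 3 libraries. In lymphatic-like ECs Notch3 and Heyl were at 0 UMIs. Over all 3 libraries the pericyte levels, from 59 and 16 UMIs, were 21.8 and 5.91 times a floor of 3 counts in lymphatic-like ECs. The counting error of the pericyte levels is not part of these values.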
